A study of Mus musculus with 24 samples.

Results

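The Hoxb cluster genes *Hoxb1* to *Hoxb9* were followed in mouse embryonic stem cells (ESCs) treated with retinoic acid (RA). The 9 genes were taken by symbol from the deposited gene table, and all 9 of them were found among its 26264 genes. The rule of choice uses symbols and no measured value, but it was set with earlier results of these data known.

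RNA-seq was performed on polyA RNA of BAP1-AID and UTX-AID ESCs. In each clone, an HA-AID tag had been placed on the endogenous protein, at the C terminus of BAP1 (a deubiquitinase that acts on H2AK119ub1) or the N terminus of UTX (a demethylase that acts on H3K27me3), and TIR1 was stably overexpressed, so that indole-3-acetic acid (IAA) drives degradation of the tagged protein. The 12 groups were each clone without (−IAA) or with IAA (+IAA), after RA for 0, 3, or 6 h, with 2 libraries in each. In the +IAA arm, IAA preceded RA by 2 h, and RA was given at 2 μM in medium without leukemia inhibitory factor. No library was kept for 3 or 6 h without RA, so effects of RA, of this medium, and of time cannot be told apart. Changes after RA are meant in this sense below. Both arms of a clone carried the tag and TIR1, each clone is 1 line, and untagged parental cells were not analysed here. *Bap1* mRNA lay between 94.4 and 105 CPM (counts scaled by library size, as edgeR's cpm function gives them) without IAA and between 94.1 and 106 CPM with IAA in BAP1-AID ESCs, and *Kdm6a* mRNA, which encodes UTX, lay between 93.3 and 113 CPM without IAA and between 107 and 124 CPM with IAA in UTX-AID ESCs. IAA removes protein, so these mRNA levels do not check the depletion.

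Hox genes encode homeodomain transcription factors that give cells of the early embryo their place along the head-to-tail axis. They lie in clusters, all in one orientation in Hoxb, and the genes at the 3′ end of a cluster are classically switched on earlier and reach further toward the head than those at the 5′ end, an order known as colinearity. In ESCs the clusters are covered by Polycomb marks. RA bound to its nuclear receptors acts on paired half-sites in DNA called RA response elements, and Hox proteins bind DNA together with PBX and MEIS partners. The comparisons below ask when each gene of the cluster appears after RA, what level it reaches, whether depletion of BAP1 or UTX changes this, and whether position along the cluster goes with time and level.

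In GENCODE vM39 on the mm39 build, the cluster covers 96933 bp of the plus strand of chromosome 11, from the start of *Hoxb9* at 96162150 to the end of *Hoxb1* at 96259082. The order from 3′ to 5′ is *Hoxb1* (chr11:96256578-96259082), *Hoxb2* (chr11:96241351-96244838), *Hoxb3* (chr11:96214152-96238756), *Hoxb4* (chr11:96209093-96212464), *Hoxb5* (chr11:96194162-96196947), *Hoxb6* (chr11:96183280-96192395), *Hoxb7* (chr11:96177449-96180988), *Hoxb8* (chr11:96172731-96176160), and *Hoxb9* (chr11:96162150-96167421). *Hoxb1* is thus the first gene from the 3′ end and *Hoxb9* the last of those described. Exons of *Hoxb3os* lie on the opposite strand over 51.5% of the exon bases of *Hoxb3* and 29.7% of those of *Hoxb2*, and exons of *Hoxb5os* over 30.8% of those of *Hoxb6* and 9.5% of those of *Hoxb5*. The strand setting of the libraries is not given in the sources used here, so reads of these pairs may be mixed. Both antisense genes had low counts, at most 36 for *Hoxb3os* and 10 for *Hoxb5os* in any library. These counts come from the same assignment of reads, so they cannot show whether reads were mixed.

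A direct repeat with a spacer of 5 bp (DR5) is the classical arrangement of an RA response element. A search on both strands for DR5 with half-sites of the AGGTCA type (A or G, then G, G or T, T, C or G, and A) found 5 matches in the cluster and the 10000 bp on either side, against 1.31 expected at the rate of chromosome 11. They are shown because RA is the stimulus, with the half-sites in capitals and 6 bases on either side, 5′ to 3′ on the plus strand of mm39. In order of position they lie 3668 bp upstream of the *Hoxb4* start, in the *Hoxb4* UTR, in a *Hoxb3* intron, 2489 bp upstream of *Hoxb1* in intergenic sequence, and 7024 bp downstream of the *Hoxb1* start in intergenic sequence.
DR5 upstream of Hoxb4, chr11:96205419-96205447: ggagagGGGTGAaccgcAGGTCAcggcgt
DR5 in the Hoxb4 UTR, chr11:96212059-96212087: ctggcaGGGTGAggggcAGTTGAgttctg
DR5 in the Hoxb3 intron, chr11:96232056-96232084: aatctcGGTTCAagaagAGTTCAcaagct
DR5 upstream of Hoxb1, chr11:96254083-96254111: gactgtAGGTGAcactgAGTTCAactatt
DR5 downstream of Hoxb1, chr11:96263596-96263624: cttcctGGTTCAtagagAGTTCAgctctg

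All 5 DR5 matches lie on the *Hoxb1* side of *Hoxb5*, and none lies in the stretch from *Hoxb9* to *Hoxb5*. The related DR2 and DR1 arrangements, with spacers of 2 and 1 bp, gave 3 matches against 2.40 expected and 1 against 2.13. A match describes letters of the sequence and is neither a binding site nor a cause of expression.

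The composite motif of Hox and PBX proteins, TGATNNAT on either strand, was found in the 300 bases around the start (250 before, 50 after) of 7 of the 9 genes, and in 1662 of 21738 protein-coding promoters (7.6%). *Hoxb4* and *Hoxb6* had no match in this window and *Hoxb7* had 2. *Hoxb1* is a textbook case of a Hox gene that maintains its own expression together with PBX. The matches are shown with the motif in capitals and 10 bases on either side, each on the strand that reads TGATNNAT, with mm39 coordinates.
Hoxb1, plus strand, chr11:96256412-96256439: gattggggggTGATGGATgggcgctggg
Hoxb2, minus strand, chr11:96242444-96242471: tgtatattgcTGATAAATacaagcgtat
Hoxb3, minus strand, chr11:96214023-96214050: agaaaagaagTGATTAATggttttctgt
Hoxb5, minus strand, chr11:96194357-96194384: tcacgatttaTGATGTATtaatgaatta
Hoxb7, minus strand, chr11:96177309-96177336: ttataaaataTGATCAATaatgaatggg
Hoxb7, minus strand, chr11:96177478-96177505: cgagattcctTGATATATtacagaatta
Hoxb8, minus strand, chr11:96172710-96172737: aaagctttaaTGATCAATttccttatta
Hoxb9, plus strand, chr11:96162095-96162122: ctcgcccgatTGATTTATgtcggagctg

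The estimated counts of a library summed to between 42018795 and 54034789 (median 49836516), so the detection floor used here, 3 counts, was 0.0545 to 0.0693 CPM. Library sizes for CPM were TMM-scaled. StringTie derives counts from coverage, so these floors cover counting error only. They do not bound a level read as 0: *Hoxb7* had 0 and 25 counts in the 2 UTX-AID +IAA libraries at 0 h. Changes against a group at 0 counts are therefore given as multiples of this floor, which are not lower bounds. ESC marker genes (*Pou5f1*, *Sox2*, *Nanog*, and 5 others) were high at every time, with a summed level of 2217 to 2707 CPM in BAP1-AID and 2265 to 2568 CPM in UTX-AID ESCs, and mesoderm markers summed to at most 3.09 CPM in any library. Similar sums do not mean equal levels of single markers, whose differences between the clones are given below.

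Before RA, the cluster was near the limit of detection. Of the 72 values of the 9 genes in the 8 libraries at 0 h, 36 were at 0 counts, and the highest was 37 counts, of *Hoxb9*. *Hoxb6* was at 0 counts in all 8 libraries, and *Hoxb5* and *Hoxb8* in 6 of them. *Hoxb9*, at the 5′ end, was the only gene with counts in all 8 libraries at 0 h, from 5 to 37. After RA, the summed level of the 9 genes in BAP1-AID −IAA ESCs went from 1.06 ± 0.484 CPM at 0 h to 44.5 ± 1.22 at 3 h and 102 ± 1.13 at 6 h (SD, n = 2). In UTX-AID −IAA ESCs it went from 1.28 ± 0.233 to 34.3 ± 0.3 and 46.6 ± 1.29 CPM. In bulk RNA, more cells that express a gene and more RNA per cell cannot be told apart.

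In the following, a gene is called higher or lower when its adjusted p is below 0.05 and its log2 fold change is beyond 1 in size (quasi-likelihood test of edgeR, p adjusted after Benjamini-Hochberg across every gene tested). The labels do not say whether the 2 libraries of a group came from separate cultures, so p-values measure only the spread between these libraries, which may be technical. At 3 h against 0 h, 7 of the 9 Hoxb genes were called higher in BAP1-AID −IAA ESCs (1.89% of all genes tested were), 8 in BAP1-AID +IAA (2.05%), 6 in UTX-AID −IAA (1.28%), and 7 in UTX-AID +IAA ESCs (1.1%). At 6 h against 0 h, all 9 were called higher in BAP1-AID ESCs of both arms (2.98% of all genes without and 3.18% with IAA), 7 in UTX-AID −IAA (1.51%), and 8 in UTX-AID +IAA ESCs (1.63%). *Hoxb1* to *Hoxb6* were called at both times in every clone and arm, and the missing calls were among *Hoxb7*, *Hoxb8*, and *Hoxb9*. The comparisons at 3 h and at 6 h share their 0 h libraries.

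*Hoxb1*, which specifies the fourth rhombomere of the hindbrain, had 0 counts in both BAP1-AID −IAA libraries at 0 h. It had 6.11 and 5.43 CPM there at 3 h and 14.2 and 13.8 CPM at 6 h. With IAA it had 0.154 and 0 CPM at 0 h, 6.55 and 5.22 at 3 h, and 12.4 and 13.4 at 6 h. The 2 arms overlapped at 3 h, and at 6 h both −IAA libraries were above both +IAA libraries by a small margin. In UTX-AID ESCs *Hoxb1* had 0 and 0.224 CPM at 0 h, 4.39 and 5.39 at 3 h, and 7.64 and 7.90 at 6 h without IAA. With IAA it had 0.0754 and 0 CPM, 4.12 and 4.05 CPM, and 7.97 and 9.30 CPM. In UTX-AID ESCs both +IAA libraries were thus below both −IAA libraries at 3 h and above them at 6 h. In BAP1-AID −IAA ESCs, *Hoxb1* was at 99.1 times the 3-count floor of the 0 h libraries at 3 h and 241 times at 6 h (adjusted p = 2.22e-06 and 2.66e-07). Its log2 fold change at 6 h in UTX-AID −IAA ESCs was 6.08 ± 0.533 (SE, adjusted p = 1.83e-06). Leaving out 1 library moved this last value to between 5.12 and 11.59.

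*Hoxb2*, which acts beside *Hoxb1* in the hindbrain and facial motor neurons, showed the widest gap between the clones at 6 h among the 5 genes of the 3′ side. In BAP1-AID −IAA ESCs it had 0.304 and 0.277 CPM at 0 h, 10.2 and 8.76 at 3 h, and 23.4 and 24.9 at 6 h. In the +IAA arm it had 0 counts in both 0 h libraries, 8.60 and 7.37 CPM at 3 h, and 23.9 and 20.8 CPM at 6 h. Both libraries of either BAP1-AID arm were higher at 6 h than at 3 h. Without IAA, UTX-AID ESCs had 0 counts of *Hoxb2* in both 0 h libraries and 5.57 and 6.11 CPM at 3 h and 6.20 and 6.42 CPM at 6 h. In UTX-AID +IAA ESCs it had 0.283 and 0 CPM at 0 h, 3.94 and 2.33 at 3 h, and 5.65 and 7.23 at 6 h. The lowest BAP1-AID library at 6 h (20.8 CPM) was above the highest UTX-AID library (7.23 CPM). The log2 fold change at 6 h against 0 h was 6.37 ± 0.189 in BAP1-AID −IAA ESCs (adjusted p = 2.53e-09). In UTX-AID −IAA ESCs *Hoxb2* was at 103 times the 3-count floor at 6 h (adjusted p = 4.37e-06).

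*Hoxb3*, a gene of the hindbrain behind the *Hoxb1* domain, was the gene of the 3′ side with the least difference between the clones. At 6 h it had 10.6 and 11.4 CPM in BAP1-AID −IAA, 10.4 and 11 in BAP1-AID +IAA, 7.39 and 8.68 in UTX-AID −IAA, and 6.64 and 7.77 in UTX-AID +IAA ESCs. At 3 h the clones overlapped, with 6.19 and 5.53 CPM in BAP1-AID −IAA and 5.87 and 6.39 in UTX-AID −IAA ESCs. Its log2 fold change at 6 h was 6.13 ± 0.520 in BAP1-AID −IAA and 4.96 ± 0.425 in UTX-AID −IAA ESCs (adjusted p = 6.34e-06 and 1.45e-06).

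*Hoxb4*, known for expanding blood stem cells when overexpressed, reached the highest level of the cluster. In BAP1-AID −IAA ESCs it had 0 and 0.198 CPM at 0 h, 13.5 and 13.9 at 3 h, and 25.9 and 26.4 at 6 h. With IAA it had 0.482 and 0.204, 9.95 and 11.9, and 24 and 22.4 CPM. Both +IAA libraries were below both −IAA libraries at each time after RA. Neither difference was called by edgeR (adjusted p = 0.381 at 3 h and 0.677 at 6 h). With 2 libraries in each arm, such a separation is only a description. In UTX-AID −IAA ESCs it had 0.351 and 0.448 CPM at 0 h, 11.5 and 11 at 3 h, and 14.8 and 15.2 at 6 h, and with IAA 0.377 and 0.120, 7.48 and 5.84, and 11 and 12.5 CPM. Here too the +IAA libraries were the lower ones after RA, without a call by edgeR (adjusted p = 0.18 at 3 h and 0.83 at 6 h). Its log2 fold change at 6 h was 8.04 ± 0.4 in BAP1-AID −IAA and 5.23 ± 0.278 in UTX-AID −IAA ESCs (adjusted p = 5.6e-08 and 9.37e-09). Leaving out 1 library moved the first value to between 7.04 and 13.36, and the second to between 5.07 and 5.39. The size of the first thus rests on few counts at 0 h.

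*Hoxb5*, which acts in the enteric neural crest and the lung, was at 0 counts in both −IAA libraries of UTX-AID and both +IAA libraries of BAP1-AID ESCs at 0 h. In BAP1-AID ESCs it had 5.48 and 5.55 CPM at 3 h and 13.4 and 13.5 at 6 h without IAA, and 4.78 and 3.70 CPM at 3 h and 10.8 and 10.3 at 6 h with IAA. In UTX-AID ESCs it had 3.30 and 2.68 CPM at 3 h and 3.77 and 4.20 at 6 h without IAA, and 2.09 and 1.51 at 3 h and 4.34 and 3.76 at 6 h with IAA. Both BAP1-AID arms lay above both UTX-AID arms at each of the 2 times. At 6 h *Hoxb5* was at 177 times the 3-count floor in BAP1-AID +IAA ESCs and 64.9 times in UTX-AID −IAA ESCs (adjusted p = 3.08e-07 and 1.1e-06).

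The genes of the 5′ side appeared as well, at lower levels. *Hoxb6* went from 0 counts in every 0 h library to 4.17 and 4.98 CPM at 6 h in BAP1-AID −IAA and 3.21 and 4.39 in BAP1-AID +IAA ESCs. In UTX-AID ESCs it reached 1.92 and 1.26 CPM without and 0.647 and 1.14 CPM with IAA. In this order these were 78.6, 63.9, 25.9, and 15.3 times the 3-count floor (adjusted p between 8.31e-05 and 0.000309). *Hoxb8*, a gene of myeloid progenitors and the trunk, was at 0 counts in both BAP1-AID −IAA libraries at 0 h. It had 0.948 and 1.09 CPM there at 3 h and 3.86 and 4.45 at 6 h, the latter 71.4 times the 3-count floor (adjusted p = 6.82e-06). In UTX-AID −IAA ESCs it had 0 and 0.142 CPM at 0 h and 1.04 and 0.642 at 6 h, a log2 fold change of 3.52 ± 1.12 that did not pass (adjusted p = 0.0855). With IAA, UTX-AID ESCs had 0 counts of *Hoxb8* in both 0 h libraries, 0.272 and 0.397 CPM at 3 h, and 0.704 and 0.971 CPM at 6 h. The means were 5.76 and 14.4 times the 3-count floor, and both times were called (adjusted p = 0.0444 and 0.0075). The 6 h levels of the UTX-AID arms overlapped, and the 0 h counts were 0 and 7 without IAA. The BAP1-AID levels of *Hoxb6* and *Hoxb8* at 6 h did not overlap those of UTX-AID ESCs.

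*Hoxb7*, whose promoter is widely used to mark the ureteric bud, had at 6 h 2.87 and 1.40 CPM in BAP1-AID −IAA, 1.18 and 1.65 in BAP1-AID +IAA, 1.59 and 1.5 in UTX-AID −IAA, and 0.723 and 1.49 in UTX-AID +IAA ESCs. It was called at 6 h in BAP1-AID −IAA (3.77 ± 0.708, adjusted p = 0.00376) and not in UTX-AID −IAA ESCs (2.90 ± 0.911, adjusted p = 0.0771). *Hoxb9*, which patterns the ribs and the trunk, had counts in every 0 h library and the smallest fitted change at 6 h in each arm. In BAP1-AID −IAA ESCs it had 0.0949 and 0.515 CPM at 0 h, 0.716 and 1.3 at 3 h, and 2.54 and 1.73 at 6 h, and in UTX-AID −IAA ESCs 0.206 and 0.265, 0.670 and 1.29, and 1.26 and 1.71 CPM. No arm was called for *Hoxb9* at 3 h (log2 fold changes of 0.85 to 2.05), and all 4 were at 6 h, with log2 fold changes of 2.81 ± 0.591, 1.78 ± 0.548, 2.65 ± 0.587, and 2.02 ± 0.557 in BAP1-AID −IAA, BAP1-AID +IAA, UTX-AID −IAA, and UTX-AID +IAA ESCs (adjusted p = 0.00613, 0.0471, 0.00979, and 0.0409). Leaving out 1 library ended the *Hoxb9* call in 3 of these arms. In BAP1-AID +IAA ESCs this held for any of the 6 +IAA libraries and both −IAA libraries at 6 h (adjusted p of 0.0633 to 0.255), in UTX-AID +IAA ESCs for the 4 +IAA libraries at 0 and 6 h and replicate 2 of −IAA at 6 h (0.0523 to 0.193), and in UTX-AID −IAA ESCs for replicate 1 at 0 h and replicate 2 at 6 h (0.0674 and 0.0661). The BAP1-AID −IAA call was kept, with 4.46 in place of 2.81 without replicate 2 at 0 h.

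**Figure D1:**
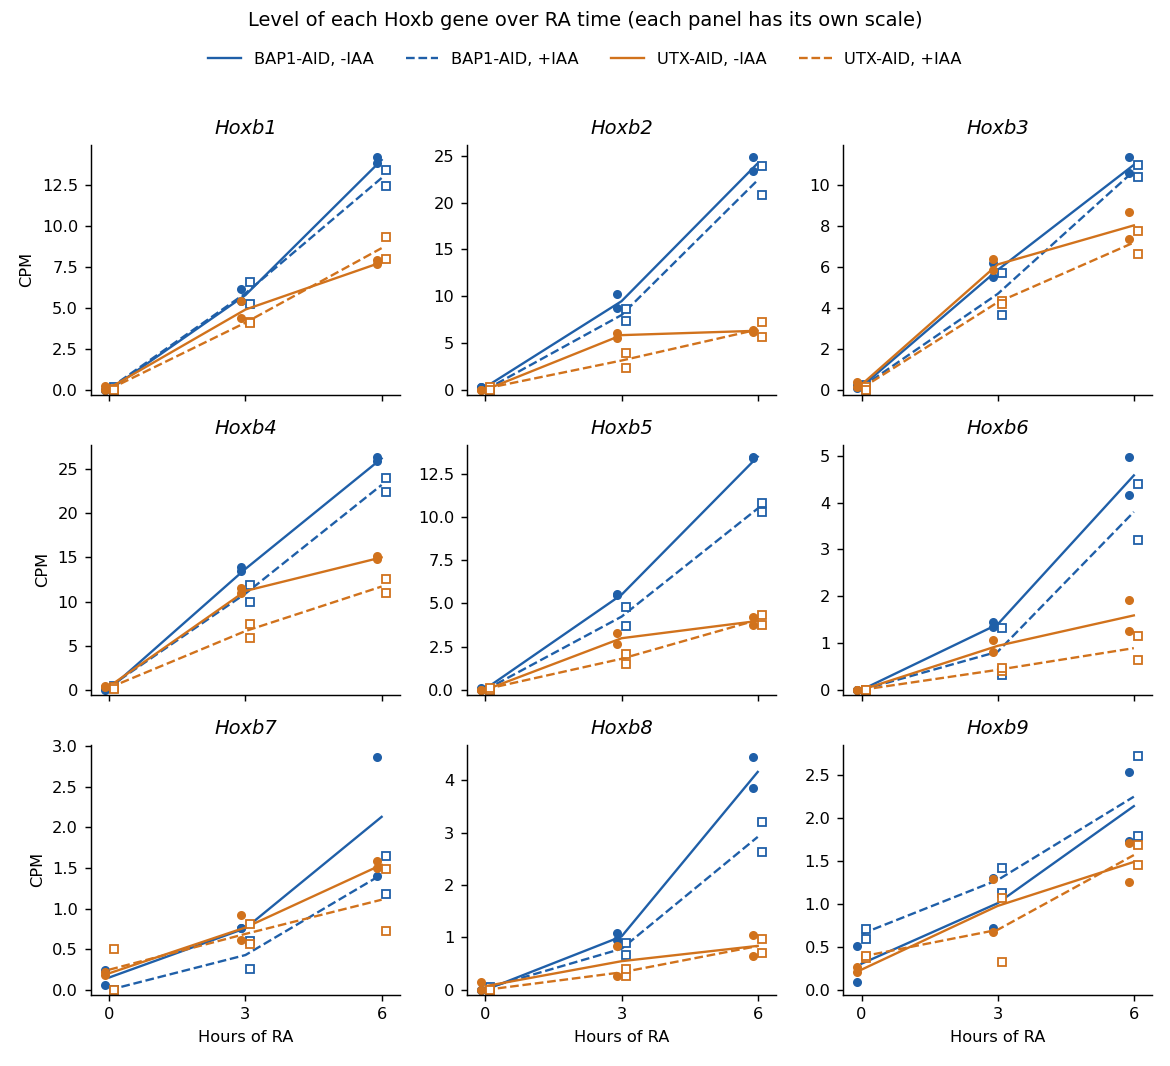
Level of each Hoxb gene in CPM (vertical axis, a separate linear scale in each panel) at 0, 3, and 6 h of RA (horizontal axis). Points are single libraries, filled for −IAA and open for +IAA, blue for BAP1-AID and orange for UTX-AID, and lines join the means of 2 libraries. At 6 h, *Hoxb2* lies between 20.8 and 24.9 CPM in BAP1-AID and between 5.65 and 7.23 CPM in UTX-AID libraries, while *Hoxb7* overlaps between the clones.

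Between 3 and 6 h, several genes rose further in BAP1-AID ESCs. *Hoxb1*, *Hoxb2*, *Hoxb5*, and *Hoxb8* were called higher at 6 h than at 3 h in the −IAA arm (4 of 9, against 0.274% of all genes tested), and these and *Hoxb4* and *Hoxb6* in the +IAA arm (6 of 9, against 0.389%). *Hoxb2* rose by 1.36 ± 0.128 on the log2 scale without and 1.49 ± 0.130 with IAA (adjusted p = 0.000386 and 0.000156), and *Hoxb8* by 2.04 ± 0.394 and 1.89 ± 0.4 (adjusted p = 0.027 and 0.0205). *Hoxb4* had 0.95 ± 0.224 without IAA (adjusted p = 0.0555) and 1.09 ± 0.227 with IAA (adjusted p = 0.0163). Without any 1 of the 4 BAP1-AID libraries at 6 h, 1 member was called in the −IAA arm, and without any 1 of the 4 +IAA libraries at 3 and 6 h, 1 or 2 members were called in the +IAA arm.

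In UTX-AID ESCs, none of the 9 genes was called between 3 and 6 h by edgeR's quasi-likelihood test, without IAA (0.0369% of all genes tested were called) or with IAA (0.043%). Without IAA, 0 members had an unadjusted p under 0.05 and DESeq2 called 0, and with IAA 6 members had an unadjusted p under 0.05 and DESeq2 called 1. *Hoxb2* had a log2 fold change of 0.11 ± 0.403 without and 1.04 ± 0.411 with IAA. All 9 differences of 6 h against 3 h were above 0 in each arm. Their median was 0.60 without IAA and 1.06 with IAA (0.0006 and -0.0011 over all genes), against 1.3 and 1.31 in BAP1-AID ESCs (0.0148 and -0.0005 over all genes). The 9 genes share their libraries, so these signs are not independent of each other.

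The step from 3 to 6 h itself was compared between the clones as the difference of the 2 log2 fold changes, averaged over the arms. It was above 0, larger in BAP1-AID, for all 9 genes, with a median of 0.51 (0.0219 over all genes) and a range of 0.07 to 1.07, but none was called (0.0119% of all genes were). At an unadjusted p under 0.05 there was 1 gene, *Hoxb2* (0.85 ± 0.282, adjusted p = 0.3), and DESeq2 called 0. The difference in course between the clones is therefore given as values and not as a call. Its shared direction over 9 genes of the same libraries is not 9 separate observations.

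**Figure D2:**
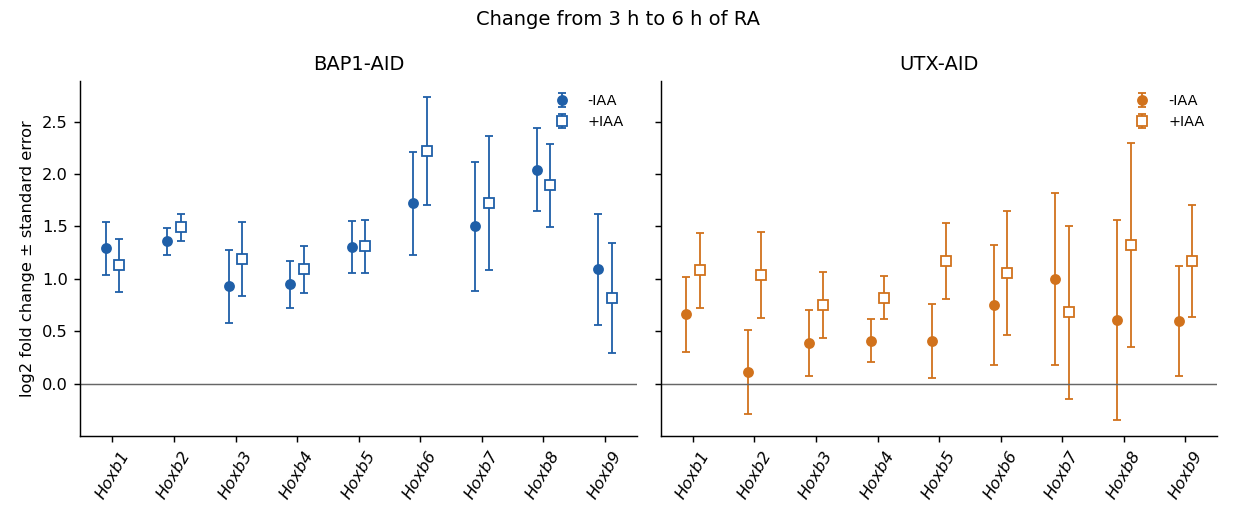
log2 fold change of 6 h against 3 h of RA for each Hoxb gene (vertical axis, log2 scale), by clone and arm. Bars are 1 standard error, derived from edgeR's F statistic. The BAP1-AID values lie between 0.82 and 2.22 and the UTX-AID −IAA values between 0.11 and 1.00.

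To compare levels between genes, CPM was divided by the exon length in kb. On this scale at 6 h, *Hoxb4* was highest in all 4 combinations of clone and arm, with 10.2 ± 0.137 CPM per kb in BAP1-AID −IAA, 9.03 ± 0.453 in BAP1-AID +IAA, 5.84 ± 0.0895 in UTX-AID −IAA, and 4.57 ± 0.419 in UTX-AID +IAA ESCs (SD, n = 2). In BAP1-AID −IAA ESCs the order of the levels per kb was *Hoxb4*, *Hoxb2* (6.93), *Hoxb1* (6.04), *Hoxb5* (4.83), *Hoxb3* (2.14), *Hoxb6* (1.97), *Hoxb8* (1.57), *Hoxb7* (1.38), and *Hoxb9* (0.79). The neighbours *Hoxb3* and *Hoxb6*, *Hoxb8* and *Hoxb7*, and *Hoxb7* and *Hoxb9* overlapped between libraries and are not ordered by these data. The order per kb in UTX-AID −IAA ESCs was *Hoxb4*, *Hoxb1* (3.35), *Hoxb2* (1.81), *Hoxb3* (1.56), *Hoxb5* (1.43), *Hoxb7* (1.00), *Hoxb6* (0.687), *Hoxb9* (0.549), and *Hoxb8* (0.316), with overlaps of *Hoxb3* with *Hoxb5* and of *Hoxb6* with *Hoxb9*.

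Position and level went together over most of the 9 genes. *Hoxb1* to *Hoxb5* held 84.1% to 86.8% of the summed level per kb of the 9 genes at 6 h, by group means. The lowest mean among *Hoxb1* to *Hoxb5* in UTX-AID −IAA ESCs was 1.43 CPM per kb and the highest among *Hoxb6* to *Hoxb9* was 1.00. With IAA they were 1.4 and 0.716. In BAP1-AID ESCs they were 2.14 and 1.97 without IAA and 2.08 and 1.64 with IAA. Single libraries of BAP1-AID −IAA overlapped, with a lowest of 2.07 for *Hoxb1* to *Hoxb5* and a highest of 2.15 for *Hoxb6* to *Hoxb9*. *Hoxb13*, beyond *Hoxb9*, is not among these genes, and its levels are given below. In BAP1-AID −IAA ESCs its CPM at 6 h was above that of *Hoxb6* to *Hoxb9*, against this pattern. In UTX-AID −IAA ESCs it lay within their range. The Spearman correlation across the 9 genes between rank from the 3′ end and level per kb at 6 h was -0.83 and -0.83 in BAP1-AID ESCs without and with IAA, and -0.87 and -0.78 in UTX-AID ESCs. These are descriptions over 9 neighbouring genes of the same libraries, which are not independent replicates. The level did not fall gene by gene: *Hoxb4*, the fourth gene from the 3′ end, was above *Hoxb1*, and *Hoxb3* was below *Hoxb4* and, in BAP1-AID ESCs, below *Hoxb5* per kb.

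**Figure D3:**
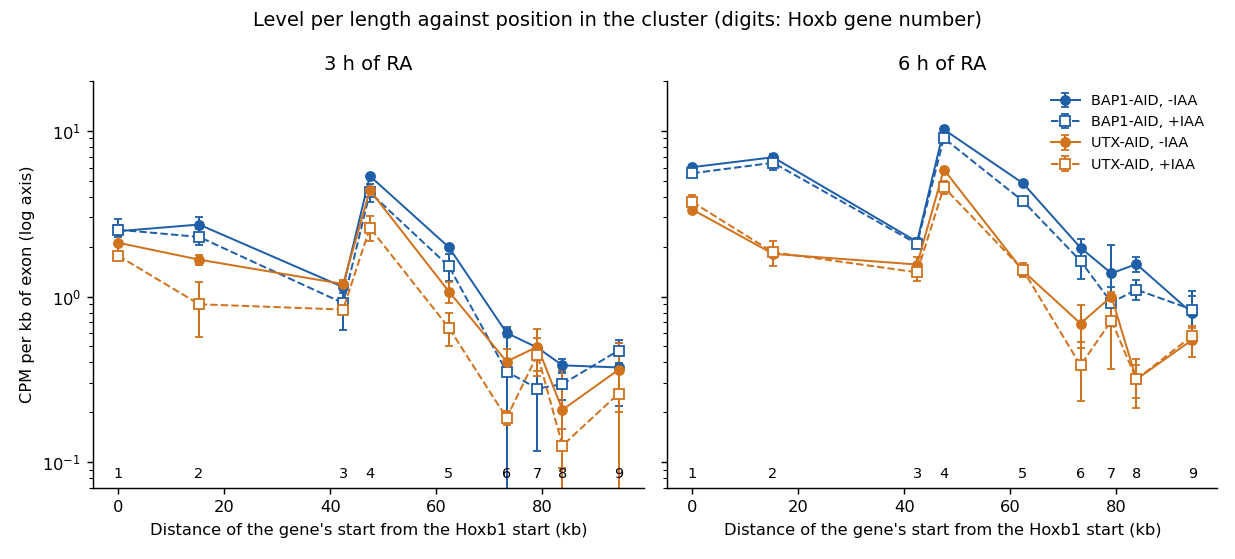
Level per length (CPM per kb of exon, logarithmic vertical axis) against the distance of the gene start from the *Hoxb1* start in kb, at 3 h (left) and 6 h (right) of RA. Points are means of 2 libraries with bars of 1 SD, and digits above the horizontal axis give the Hoxb gene number. *Hoxb4* stands highest in every line at 6 h, between 4.57 and 10.2 CPM per kb, and *Hoxb6* to *Hoxb9* stand lowest.

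Time of activation was described as the share of the rise at 6 h that was already reached at 3 h. In BAP1-AID −IAA ESCs this share was highest for *Hoxb3* (52.5%) and *Hoxb4* (52.2%), 41.1% for *Hoxb1*, 40.7% for *Hoxb5*, and 38.5% for both *Hoxb2* and *Hoxb9*. It was lowest for *Hoxb6* (30.6%), *Hoxb7* (30.6%), and *Hoxb8* (24.5%). Over the 4 ways of taking 1 library at each time, the range was 51.0% to 53.4% for *Hoxb4* and 21.3% to 28.2% for *Hoxb8*, which do not overlap, but 18.4% to 69.9% for *Hoxb9*. *Hoxb1*, the gene at the 3′ end, was thus not ahead of *Hoxb3* and *Hoxb4* in this arm. With IAA the shares of *Hoxb1*, *Hoxb3*, and *Hoxb4* were 45.3%, 43.2%, and 46.3%, with ranges that overlap, and that of *Hoxb8* was 26.1%.

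A larger part of the rise had occurred by 3 h in UTX-AID −IAA ESCs, with 92.5% for *Hoxb2*, 75.5% for *Hoxb3*, 74.9% for *Hoxb5*, 74.3% for *Hoxb4*, and 62.4% for *Hoxb1*. On the 5′ side it was 62.1% for *Hoxb8*, 59.4% for *Hoxb9*, 59% for *Hoxb6*, and 42.1% for *Hoxb7*. The ranges over library pairs were 86.7% to 98.4% for *Hoxb2* here and 34.4% to 42.8% in BAP1-AID −IAA ESCs. Those of *Hoxb7* (29.5% to 55.6% in UTX-AID −IAA), *Hoxb8* (20.1% to 133%), and *Hoxb9* (29.4% to 103%) overlapped between these 2 groups. The shares in UTX-AID +IAA ESCs were lower for all but *Hoxb7*, 47.5% for *Hoxb2* (30.8% to 68.9%) and between 26.4% for *Hoxb9* and 59.1% for *Hoxb3* over the 9 genes. The Spearman correlation across the 9 genes between rank from the 3′ end and this share was -0.70 and -0.57 in BAP1-AID ESCs without and with IAA, and -0.68 and -0.45 in UTX-AID ESCs. It was not stable between the libraries: from the libraries of number 1 alone it was -0.80 in BAP1-AID −IAA ESCs, and from those of number 2 alone 0.22. With 2 times after RA, an order of onset before 3 h was not measured.

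The IAA comparison asks whether depletion of BAP1 or UTX changes this course. Untagged cells given IAA were not analysed here, so loss of the protein and other effects of IAA cannot be told apart. Depletion below stands for +IAA against −IAA in the tagged clone. After RA, at 3 or 6 h, none of the 9 genes was called with depletion of BAP1 (0.892% and 1.61% of all genes tested were) or of UTX (0.043% and 0.0123%) by edgeR's quasi-likelihood test. At 6 h, *Hoxb1* had 14.0 ± 0.297 CPM without and 12.9 ± 0.673 with IAA in BAP1-AID ESCs (log2 fold change -0.14 ± 0.243), and 7.77 ± 0.186 and 8.63 ± 0.938 CPM in UTX-AID ESCs (0.15 ± 0.349). *Hoxb4* had -0.19 ± 0.22 with BAP1 depletion and -0.35 ± 0.202 with UTX depletion. *Hoxb5* had -0.37 ± 0.241 and 0.02 ± 0.348, with no overlap between the arms in BAP1-AID ESCs (13.5 ± 0.0686 against 10.5 ± 0.367 CPM).

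At 3 h most values were below 0. With IAA in UTX-AID ESCs all 9 genes had log2 fold changes below 0, between -1.14 and -0.17 (median -0.72, and -0.0045 over all genes). *Hoxb4* was not called, with 11.2 ± 0.363 CPM without and 6.66 ± 1.16 with IAA (-0.76 ± 0.207, adjusted p = 0.18), and *Hoxb2* had 5.84 ± 0.382 and 3.13 ± 1.14 CPM (-0.90 ± 0.412, adjusted p = 0.525). At 6 h the median of the 9 was -0.00 in UTX-AID ESCs. With IAA in BAP1-AID ESCs 7 of the 9 values at 3 h were below 0 (median -0.33, and -0.0144 over all genes). So were 8 of 9 at 6 h (median -0.19, and -0.0240 over all genes). The 9 genes were measured in the same libraries, so a shared sign is not 9 separate observations. Unadjusted p under 0.05 was found for 0 members in BAP1-AID at 3 and 6 h, 2 in UTX-AID at 3 h, and 0 at 6 h, and DESeq2 called 0 in all 4. At 2 libraries per group, the standard errors of single genes were 0.124 to 0.594 at 6 h in BAP1-AID and 0.202 to 0.942 in UTX-AID ESCs.

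**Figure D4:**
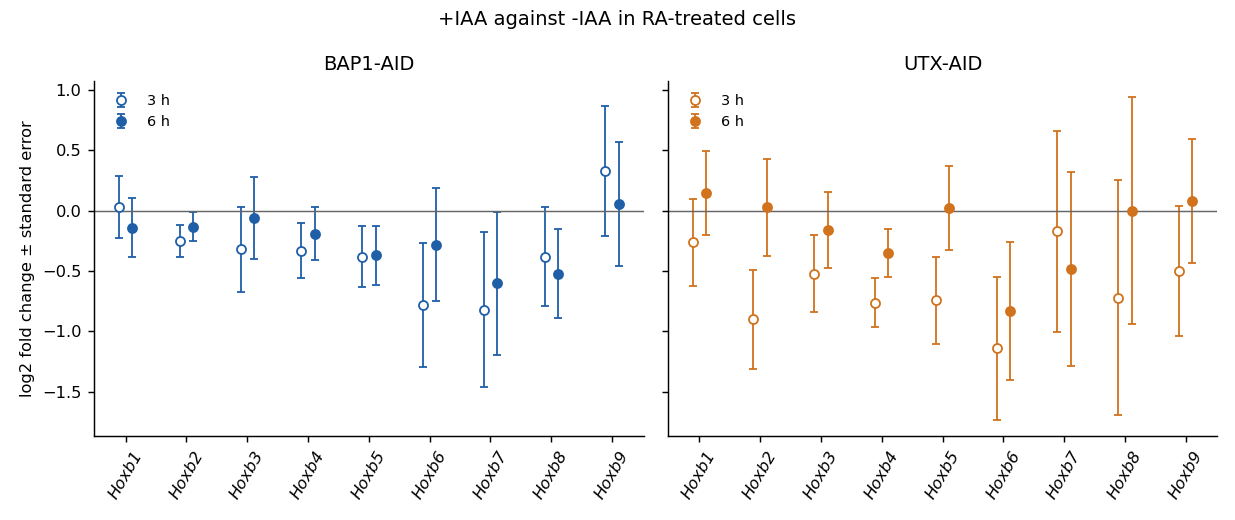
log2 fold change of +IAA against −IAA for each Hoxb gene at 3 h (open) and 6 h (filled) of RA, in BAP1-AID (left) and UTX-AID (right) ESCs. Bars are 1 standard error, derived from edgeR's F statistic. At 3 h in UTX-AID ESCs all 9 values lie between -1.14 and -0.17, and none of the values shown was called.

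Before RA, IAA differences rested on counts near the floor. *Hoxb2* had 16 and 14 counts without IAA and 0 and 0 with IAA in BAP1-AID ESCs, and *Hoxb7* had 13 and 3 counts against 0 and 0. Both were called lower (adjusted p = 0.000207 and 0.0234, 2 of 9 against 1.15% of all genes tested). Without replicate 1 of +IAA at 0 h 1 member was called, and without replicate 2 of −IAA at 0 h 4 were. In UTX-AID ESCs none was called at 0 h (0.0184% of all genes), with 4 members at an unadjusted p under 0.05 and 0 by DESeq2, and there *Hoxb2* went the other way, with 0 and 0 counts without IAA against 15 and 0 with IAA. Time since IAA rose with RA time in the +IAA arm, so longer depletion and an altered RA response cannot be told apart. The test of an altered RA response takes the IAA difference after RA minus that at 0 h. In BAP1-AID ESCs it called 0 members at 3 h (0% of all genes) and *Hoxb2* alone at 6 h (1 of 9, 0.0255% of all genes, adjusted p = 0.0252), which rests on its 0 counts before RA in the +IAA arm and was lost without any 1 of 9 of the 12 libraries. With UTX depletion it called 0 members at 3 h (0.0123%) and likewise 0 (0%) after 6 h. Where no member was called, 6, 2, and 3 members had an unadjusted p under 0.05 in BAP1-AID at 3 h, UTX-AID at 3 h, and UTX-AID at 6 h, and DESeq2 called 2, 0, and 0.

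The clones differed in level. At 6 h, averaged over the arms, all 9 genes had higher values in BAP1-AID than in UTX-AID ESCs, and *Hoxb2* (1.86 ± 0.200, adjusted p = 6.04e-08), *Hoxb5* (1.56 ± 0.22, adjusted p = 2.89e-06), *Hoxb6* (1.80 ± 0.358, adjusted p = 0.000239), and *Hoxb8* (2.05 ± 0.451, adjusted p = 0.000499) were called, 4 of 9 against 22.5% of all genes tested in either direction. As ratios of mean CPM without IAA, BAP1-AID over UTX-AID was 3.83 for *Hoxb2*, 3.38 for *Hoxb5*, 2.87 for *Hoxb6*, and 4.95 for *Hoxb8*. *Hoxb1* (0.70 ± 0.229, adjusted p = 0.0108) and *Hoxb4* (0.88 ± 0.163, adjusted p = 5.42e-05) passed the adjusted p but not the fold threshold. *Hoxb3* (0.50 ± 0.252), *Hoxb7* (0.40 ± 0.556), and *Hoxb9* (0.51 ± 0.385) passed neither. The median of the 9 was 0.88, and -0.0544 over all genes. These 9 values come from the same libraries and are not independent.

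At 3 h, *Hoxb2* (1.00 ± 0.203) and *Hoxb5* (1.04 ± 0.227) were called (adjusted p = 0.000211 and 0.000437), 2 of 9 against 22.7% of all genes, a share near the background, and with offsets for GC content and transcript length 0 were called. Leaving out replicate 2 of UTX-AID +IAA at 3 h also gave 0, and leaving out replicate 1 of BAP1-AID −IAA, replicate 1 of BAP1-AID +IAA, or replicate 2 of UTX-AID −IAA at 3 h gave 1. At 0 h, *Hoxb7* alone was called, lower in BAP1-AID ESCs, from 13, 3, 0, and 0 counts against 9, 11, 0, and 25 (1 of 9 against 23.2%). In the 6 h RA response *Hoxb4* was called (1.67 ± 0.445, adjusted p = 0.0455, 1 of 9 against 0.648%), a value that includes its 0 counts in 1 BAP1-AID −IAA library at 0 h. The call was lost without that library (1.13, adjusted p = 0.144) and without any 1 of 18 of the 24 libraries in all. The value was 4.3 without the other BAP1-AID −IAA library at 0 h (adjusted p = 0.00145) and 1.11 without replicate 1 of UTX-AID +IAA at 0 h (adjusted p = 0.455). Clone, tag, and any batch of library making that went with a clone cannot be told apart.

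**Figure D5:**
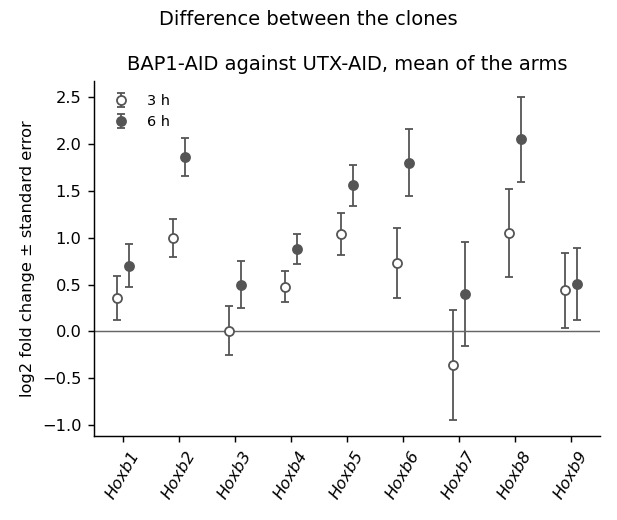
log2 fold change of BAP1-AID against UTX-AID ESCs, averaged over the −IAA and +IAA arms, for each Hoxb gene at 3 h (open) and 6 h (filled) of RA. Bars are 1 standard error, derived from edgeR's F statistic. All 9 values at 6 h are above 0, from 0.40 for *Hoxb7* to 2.05 for *Hoxb8*.

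Other genes of the RA and Hox pathways moved beside the cluster. Of 13 RA receptors and RA metabolism genes, 8 were called higher at 6 h in BAP1-AID −IAA and 7 in UTX-AID −IAA ESCs, and none lower. Of all genes tested, 2.98% and 1.51% were called higher there. *Rarb*, an RA receptor that is itself RA-induced, had 0 and 0.0594 CPM at 0 h and 15.6 and 13.4 CPM at 6 h in BAP1-AID −IAA ESCs, against 0.103 and 0.265 CPM and 4.72 and 4.88 CPM in UTX-AID −IAA ESCs. *Cyp26c1*, which degrades RA, had 0 counts in all libraries at 0 h and 1.44 to 3.86 CPM at 6 h. At 6 h, 8 of the 13 were called higher in BAP1-AID than in UTX-AID ESCs and 0 lower (median 1.05). Of all 16816 genes tested between the clones, 22.5% were called in either direction, 1414 higher and 2366 lower. Of 15 Hox regulators and cofactors, 6 were called higher at 6 h in BAP1-AID −IAA and 3 in UTX-AID −IAA ESCs, and none lower. *Meis2*, a DNA-binding partner of Hox proteins, had 71.6 and 69.8 CPM at 6 h in BAP1-AID −IAA and 19.0 and 20.1 CPM in UTX-AID −IAA ESCs. *Cdx1*, a regulator of Hox genes, had 2.40 and 2.27 against 4.02 and 3.31 CPM and was not called between the clones. Of these 15, 7 were called higher in BAP1-AID than in UTX-AID ESCs at 6 h, *Meis2* among them, and 1 lower. Neural markers, none of which was called at 6 h against 0 h, summed to 88.9 to 104 CPM in BAP1-AID and 52.2 to 76.0 CPM in UTX-AID libraries over all times, and endoderm markers at 6 h to 8.21 to 8.37 and 3.33 to 5.35 CPM, with *Gata6* called higher at 6 h against 0 h in BAP1-AID ESCs. Feeder fibroblast markers summed to 6.91 to 13.7 CPM in BAP1-AID and 2.27 to 7.04 CPM in UTX-AID libraries. Of the 8 ESC markers, *Nanog* and *Zfp42* were called lower in BAP1-AID than in UTX-AID ESCs at each time, and none higher. Between 22.5% and 23.2% of all genes were called in these comparisons in either direction. The part of these differences in the Hoxb levels was not tested.

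Few genes beside the cluster were called. The BAP1-AID fit tested 11 genes flanking the cluster and the UTX-AID fit 10. In each clone and arm 1 of them, *Calcoco2*, was called higher at 6 h (1.51% to 3.18% of all genes were). It had 4.73 and 3.78 CPM at 0 h and 10.2 and 9.93 CPM at 6 h in BAP1-AID −IAA ESCs, and 12.7 and 17.0 CPM and 28.8 and 38.4 CPM in UTX-AID −IAA ESCs. *Hoxb13*, the isolated gene beyond *Hoxb9*, had 0.285 and 0.277 CPM at 0 h, 8.49 and 7.69 at 3 h, and 8.92 and 9.73 at 6 h in BAP1-AID −IAA ESCs, with a log2 fold change of 5.05 ± 0.312 at 6 h (adjusted p = 3.56e-07). In UTX-AID −IAA ESCs it had 0.0826 and 0.142, 0.716 and 1.02, and 1.17 and 1.01 CPM (3.25 ± 0.732, adjusted p = 0.0109). The clone difference of *Hoxb13* at 6 h was 2.85 ± 0.256 (log2, higher in BAP1-AID, adjusted p = 1.39e-09), more than any of the 9 genes. Within the cluster, *Hoxb3os* was at 0 counts in all 8 libraries at 0 h and had 13 to 36 counts at 6 h, and *Mir10a* had at most 2 counts.

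Of the other Hox clusters, Hoxa responded as well. Of its 11 genes, 8 were called higher at 6 h in BAP1-AID −IAA and 8 in UTX-AID −IAA ESCs, and 7 in either +IAA arm. The shares of all genes called higher in BAP1-AID and UTX-AID ESCs were 2.98% and 1.51% without IAA and 3.18% and 1.63% with IAA. *Hoxa5* had 29.2 and 29.5 CPM at 6 h in BAP1-AID −IAA and 11.5 and 13.3 CPM in UTX-AID −IAA ESCs. Between the clones at 6 h, 4 Hoxa genes were called higher in BAP1-AID and 3 lower, and of the 9 Hoxb genes 4 were higher and 0 lower. Of all 16816 genes tested, 1414 were called higher and 2366 lower, 22.5% in either direction. With so few genes, the absence of lower calls is not read as a trait of Hoxb. Of 9 Hoxc and 9 Hoxd genes, none was called at 6 h in either −IAA arm, but the BAP1-AID fit tested only 2 and 5 of them and the UTX-AID fit 2 and 8. In the +IAA arms at 6 h, *Hoxc4* was called higher in UTX-AID ESCs (0 and 0 counts at 0 h, 14 and 23 at 6 h, adjusted p = 0.033), and *Hoxc13* (50 and 70 against 21 and 7 counts, adjusted p = 0.0358) and *Hoxd11* (27 and 44 against 0 and 0 counts, adjusted p = 0.0211) were called lower in BAP1-AID ESCs.

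Across the 24 libraries, log2 CPM of the 9 genes correlated with each other with a Pearson r of 0.605 to 0.979 over the 36 pairs (median 0.919). Among genes outside the cluster, those most like *Hoxb1* were *Camk2n1* (r = 0.977), *Cyp26c1* (0.975), and *Tal2* (0.972), and those most like *Hoxb4* included *Nt5e* (0.968) and *Foxp1* (0.967). These values are descriptions: the libraries fall into 0 h and RA-treated ones, and any gene that separates them scores high. *Camk2n1* went from 2.32 to 4.47 CPM at 0 h to 26.4 to 36.3 CPM at 6 h, and *Foxp1* from 69.9 to 102 CPM to 196 to 232 CPM.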

How the data were processed

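RNA-seq of BAP1-AID and UTX-AID ESCs was analysed from the estimated counts per gene that the authors deposited, made with HISAT2 (2.2.1) and StringTie (2.2.1) on mm39 per the submitters' processing notes, as whole numbers without normalization. The gene annotation and strandedness are not given in the sources used here. The authors tested differential expression with DESeq2. Groups, times, and replicate numbers were taken from the labels.

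Counts were analysed in R 4.3.3 with edgeR 4.0.16 (filterByExpr at min.count 10 and min.total.count 15, TMM, glmQLFit and glmQLFTest, Benjamini-Hochberg adjustment). The 12 libraries of a clone were fitted together (15695 genes tested in BAP1-AID, 16268 in UTX-AID), and all 24 for differences between clones (16816 genes). Biological coefficients of variation were 11.6% to 11.9% and TMM factors 0.965 to 1.03. Standard errors of log2 fold changes are approximate: the absolute log2 fold change divided by the square root of the test's F statistic. The fit was tested on simulated data. Gene starts and exon lengths came from GENCODE vM39 (start of the Ensembl canonical transcript for promoters), and motifs were searched in the mm39 sequence.

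The members and gene lists were chosen with earlier results of these data known. Named genes are the 9 members, up to 4 examples per list, 3 genes most like *Hoxb1* and 3 most like the member of the highest level, and genes between the ends of the cluster. *Meis2*, *Hoxb3os*, *Hoxb13*, and *Calcoco2* are named from the lists, and *Hoxc4*, *Hoxc13*, and *Hoxd11* after their values were seen. A gene that the rule names is not reported here. Alternatives were DESeq2 1.42.0, RLE size factors, no filter on low counts, a replicate block, all 24 libraries in 1 fit, GC and length offsets, other gene lengths, and leaving out each library. The comparison of the step from 3 to 6 h between clones was added after seeing the data.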

Additional observations from a re-analysis of the deposited data

Results flagged for a closer look

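The RA response of *Hoxb2* at 6 h differed between the arms of BAP1-AID ESCs in the test of the difference itself, by 6.75 on the log2 scale. This fitted value depends on the prior count and is no measure of size, because *Hoxb2* had 16 and 14 counts without IAA and 0 and 0 with IAA at 0 h, while at 6 h the arms overlapped at 23.4 and 24.9 against 23.9 and 20.8 CPM.

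The RA response of *Hoxb4* at 6 h was larger in BAP1-AID than in UTX-AID ESCs by 1.67 on the log2 scale in the test of the difference. At 0 h the BAP1-AID libraries had 0, 10, 25, and 10 counts of *Hoxb4* and the UTX-AID libraries 17, 22, 20, and 6, and leaving out 1 library moved the value to between 1.11 and 4.3.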

How the results depend on the processing

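The calls after RA at 3 and 6 h against 0 h stayed within 1.5 times their number under every alternative run. DESeq2 called 4 members for IAA at 0 h in BAP1-AID, 2 for the altered RA response at each of 3 and 6 h in BAP1-AID, 1 for 6 h against 3 h in UTX-AID +IAA, 2 between the clones at 0 h, and 2 for the 6 h RA response between the clones. With all 24 libraries in 1 fit the altered RA response at 6 h in BAP1-AID called 0. Between the clones, GC and length offsets called 2 at 0 h and 0 at 3 h, with and without the replicate block, and RLE size factors called 1 at 3 h. The replicate block alone, with the replicate number in the fit, called 1 between the clones at 3 h and changed no other count by over 1.5 times. The labels give no meaning to the replicate numbers, and same-numbered libraries did not deviate together (r of -0.0414 to 0.0749 over 15 pairs of groups per clone). *Hoxb8* at 6 h against 3 h lost its call with all 24 libraries (adjusted p = 0.0982 and 0.103 without and with IAA). *Hoxb9* at 6 h in BAP1-AID +IAA lost its call with offsets (adjusted p = 0.0565) and without a filter (0.052). The cause was not tested. The correlation of position and level at 6 h was -0.85 with the longest transcript and -0.77 with coding length in BAP1-AID −IAA, and -0.80 with coding length in BAP1-AID +IAA. All 9 members had a mean of at least 10 counts at 6 h, so that filter left it as it was.

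Leaving out 1 library gave counts of members called of 1 to 5 and 1 to 7 for 6 h against 3 h in BAP1-AID without and with IAA, 1 to 4 and 0 to 1 for IAA at 0 and 3 h in BAP1-AID, 0 to 1 for the altered response in BAP1-AID at 3 and at 6 h and in UTX-AID at 3 h, 1 to 4 and 0 to 3 between the clones at 0 and 3 h, and 0 to 1 for the 6 h RA response between the clones. A lone library of a group was assumed to vary like the other groups. From 1 library per group, the correlation of position and level in UTX-AID −IAA was -0.87 to -0.82, and that of position and share of the rise was -0.80 to 0.22 and -0.48 to -0.35 in BAP1-AID without and with IAA, and -0.58 to -0.47 and -0.43 to -0.03 in UTX-AID, so its sign in BAP1-AID −IAA depended on the library. Levels under about 0.07 CPM could not be detected at this depth.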
